A study of Mus musculus with 6 samples.

Results

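The T cell receptor signalling components examined here are 30 genes, chosen by name, that carry the antigen signal from the receptor complex at the cell surface to the transcription factors in the nucleus. All 30 were found once among the 54532 genes of the deposited count table, and all 30 were among the 16075 genes with enough reads to test. RNA was sequenced from splenic CD4+ T cells of C57BL/6 mice in the acute phase of EAE, experimental autoimmune encephalomyelitis, in which T cells are primed to attack brain and spinal cord. The 3 libraries labelled Ogt-KD came from mice of genotype Ogtfl/wt CD4-Cre, which carry a floxed and a wild-type allele of Ogt and Cre under Cd4 regulatory sequence, a driver that is active from the thymus onwards and also in the CD8 lineage. The 3 control libraries came from mice labelled wild type, with no floxed allele and no Cre named in the label. The labels name neither age nor sex of the mice. The product of Ogt, O-GlcNAc transferase, modifies nuclear and cytosolic proteins with the sugar O-GlcNAc. The comparison asks whether the transcripts of the signalling chain differed between the genotypes, and RNA counts measure neither phosphorylation nor O-GlcNAc on its proteins.

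The antigen-binding chains of the T cell receptor have almost no signalling tail and rely on the CD3 chains and on the zeta chain, whose tails carry tyrosine activation motifs. LCK, brought in by the coreceptor CD4, phosphorylates those motifs, ZAP-70 docks on them and phosphorylates the adaptors LAT and SLP-76, and the assembled complex starts calcium release and NFAT activation, Ras signalling, and NF-kB activation through protein kinase C theta. In CD4+ T cells the same chain is set by phosphatases, by the kinase CSK and by ubiquitin ligases that limit it.

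Total counts were 18127031 to 24917282 in the control libraries and 18969803 to 25683453 in the Ogt-KD libraries. Ogt itself was at 599, 628 and 562 CPM (normalised read counts, scaled by library size and a TMM factor) across control replicates 1 to 3 and at 662, 599 and 459 CPM across Ogt-KD replicates 1 to 3. Ogt-KD replicate 1 lay above every control library, so the counts summed over this gene do not separate the labels (log2 fold change -0.06, SE 0.15), and Ogt-KD below is the label's name for these libraries. The labels do not say which exons are floxed. The counts do not show what share of the cells had lost the floxed allele, and member values average over all cells in a library. The first principal component of all tested genes held 44.8% of the variance. On it, both replicate 3 libraries lay lowest, at -40.7 for control and -38.4 for Ogt-KD. Control replicates 1 and 2 lay at -6.92 and 7.95, and Ogt-KD replicates 1 and 2 at 35.7 and 42.4. On the second component, the controls lay at 8.98 to 25.9 and the Ogt-KD libraries at -34.4 to -12.2. Member values without the replicate 3 libraries are given below. The summed CPM of 8 macrophage and monocyte markers, of which Csf1r was the highest, was 1931 and 2233 in the replicate 3 libraries and 602 to 1114 in the others, while the sum of 9 dendritic cell markers, led by Cd74, was 376 and 647 against 765 to 1764. Cd74 and H2-Ab1 weigh most in that sum, with means of 524 and 311 CPM over all libraries, against 57.8 CPM for Itgax, the next. Both replicate 3 libraries were lowest for Cd74, H2-Ab1, Itgax, Zbtb46 and Cd209a, but not for Flt3, Xcr1, Clec9a and Siglech. By genotype, those dendritic cell markers summed to 376 to 774 in control and 647 to 1764 in Ogt-KD, with 9 of 9 fold changes above 0, and the macrophage and monocyte markers to 1106 to 2233 and 602 to 1931, with 1 of 8 above 0.

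No member passed the test between the genotypes, and the intervals around the differences were narrow. In edgeR's quasi-likelihood test with Benjamini-Hochberg adjustment over all 16075 genes, 0 of 30 members passed an adjusted p of 0.05, and their adjusted p ran from 0.669 to 0.998, where 1 gene (0.00622%) passed in all. The member fold changes ran from -0.27 for Lck to 0.13 for Cd6 (log2, Ogt-KD over control). The 95% interval of all 30 members lay within 1.5-fold either way, which 45.7% of all tested genes reached, and the widest bounds were -0.54 and 0.46. These intervals belong to single genes and are not adjusted for their number. The count within 1.5-fold was added after the data were seen, and the tested genes beside it were not matched to the members' expression level. With 1 library left out in turn, 27 to 30 members stayed within that limit, and 27 of them did so when control replicate 3 or Ogt-KD replicate 1 was the one left out. The members' median SE was 0.11 against 0.20 over all tested genes, and the median SD of log2 CPM between libraries of a group was 0.11 against 0.24.

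Other tests called no member either. DESeq2 called 126 genes (0.784%) and 0 members, limma-voom 1 gene (0.00622%) and 0 members, and edgeR with the replicate number as a block 47 genes (0.292%) and 0 members. At an unadjusted p under 0.05, edgeR had 7.52% of all tested genes and 0 members, DESeq2 had 7.46% and 2 members, Lck and Grap2, and edgeR with the replicate block had 13.2% and 3 members, Lck, Grap2 and Cd247. With that block the edgeR adjusted p was 0.29 for Lck, 0.32 for Grap2 and 0.35 for Cd247. In the authors' deposited table, 0 of 30 members had an adjusted p under 0.05, where 110 of 26365 genes (0.417%) did, and the smallest among the members was 0.604, for Lck.

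Of the 30 members, 10 had a fold change above 0 and 20 below, with a median of -0.05. Over all tested genes, 7877 lay above 0 and 8198 below, with a median of -0.0048. With libraries scaled to the summed Cd3d, Cd3e and Cd3g counts, members themselves, 16 members lay above 0 and their median was 0.01. That scaling raised all genes together, to a median of 0.06, and the members' median stayed below that of all tested genes. The split moved with single libraries, with 4 members above 0 once control replicate 3 was left out and 5 once Ogt-KD replicate 1 was. The 3 Ogt-KD values lay below all 3 control values for 7 members (Lck, Lat, Grap2, Vav1, Prkcq, Ptprc and Csk), where 5.88% of all tested genes showed this. They lay above for 0 members, against 7.43% of all tested genes. With both replicate 3 libraries left out, a choice made after the data were seen, the Ogt-KD pair lay below the control pair for 13 members, against 25% of all tested genes. It lay above for 5 members (Cd4, Cd5, Cd6, Malt1 and Nfatc2), against 24.5%.

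**Figure D1:**
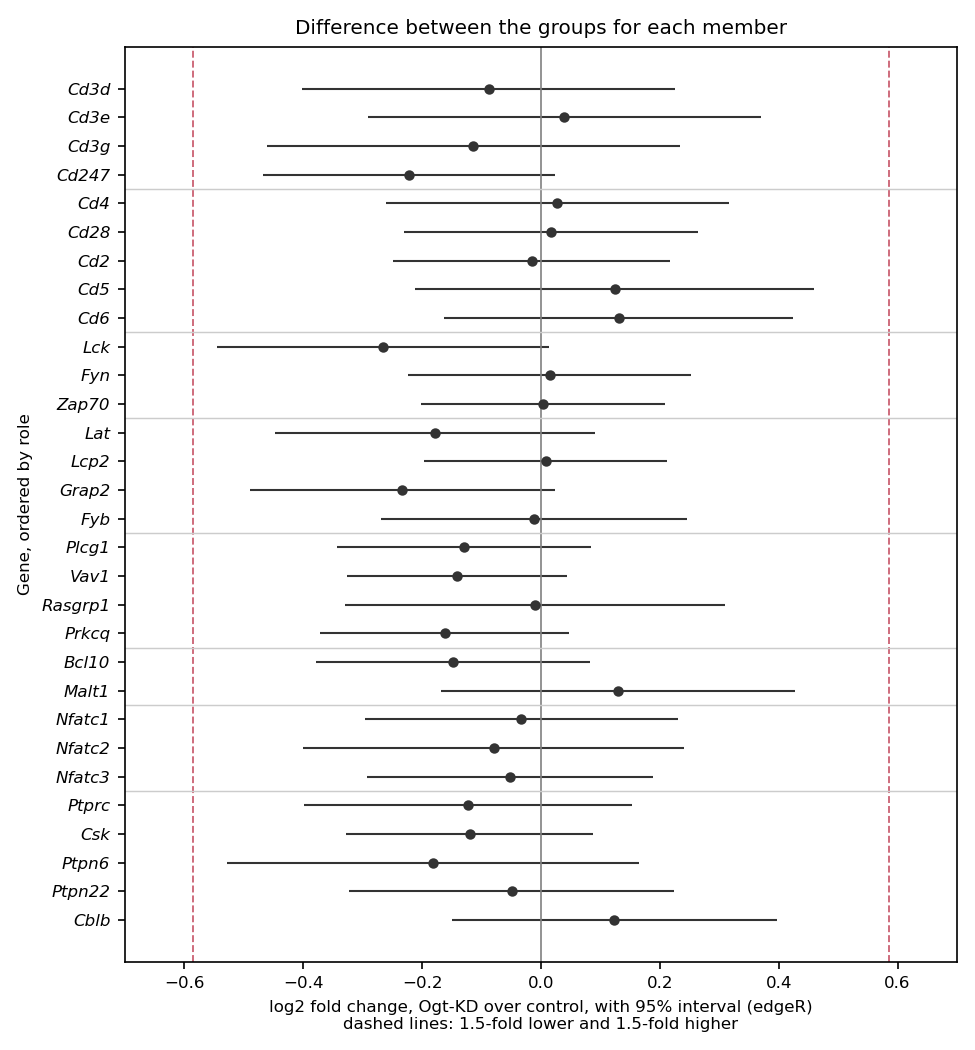
The difference of Ogt-KD from control (x axis, log2 fold change) is plotted as a point for each of the 30 members (y axis, grouped by role). Each point's 95% interval was derived from the edgeR fit, and dashed lines mark 1.5-fold lower and higher. Every interval crosses 0 and stays between the dashed lines, and Lck lies lowest at -0.27.

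**Figure D2:**
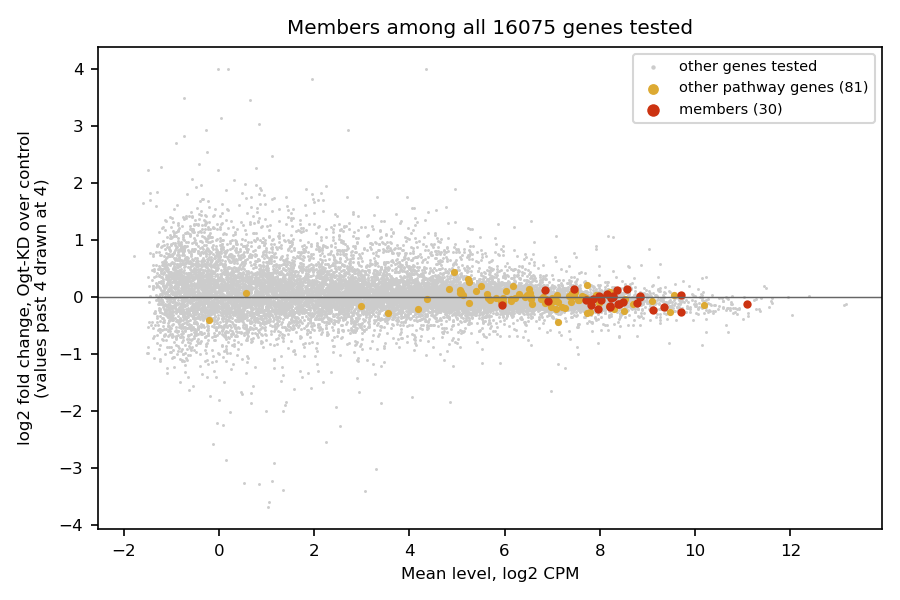
Each tested gene is drawn at its mean level (x axis, log2 CPM) and its difference of Ogt-KD from control (y axis, log2 fold change, values past 4 drawn at 4), with the 30 members in red and the 81 other tested pathway genes in yellow. The members sit at the right, highly expressed side of the cloud and within -0.27 to 0.13.

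The deposited FPKM divides a count by the deposited gene length and a constant per library, so the order of genes on it depends on that length. Lck had the highest FPKM of the members in the control libraries at 312 ± 18.3 (SD, n = 3), followed by Lat at 249.7 ± 3.48. By CPM, Ptprc was above Lck, at 2274 against 917 in the control mean, but it is divided by 18313 bases and Lck by 2929. Whether these lengths match the transcripts made in these cells was not tested. Cd4 at 203 ± 12.9 FPKM and Cd3d at 203 ± 9.62 could not be told apart beyond their spread. Cd3g stood at 139 ± 17.4 FPKM and Cd3e at 68.8 ± 6.75. The zeta chain gene Cd247 was listed at 50.2 ± 2.84 FPKM, but 3007 of the 5329 bases it is divided by overlap another gene. If reads on shared bases were not counted, its level is understated, and if they were counted from both strands, it can be overstated. The place of Cd247 relative to Cd3e is therefore uncertain. The lowest members on this measure were Malt1 at 14.2 ± 1.41, Bcl10 at 14.1 ± 1.48, Nfatc2 at 11.7 ± 0.191 and Cblb at 10.6 ± 1.49 FPKM. Malt1 and Bcl10 did not differ beyond their spread, nor did Nfatc2 and Cblb. The labelled cell type was present in every library: the receptor constant-region genes Trac and Trbc2 had 469 ± 18.7 and 732 ± 89.2 CPM (SD, n = 3) in the controls against 417 ± 18.4 and 685 ± 75.3 CPM in Ogt-KD, and the CD8 markers Cd8a and Cd8b1 summed to 12.9 to 17.1 CPM. Trbc1 had 410 ± 76.1 CPM in the controls against 365 ± 94.3 CPM in Ogt-KD. All 3 Ogt-KD values of Trac lay below all 3 controls, as for 5.88% of all tested genes (log2 fold change -0.17, SE 0.09, edgeR adjusted p = 0.741). The groups overlapped for Trbc1 and Trbc2.

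**Figure D3:**
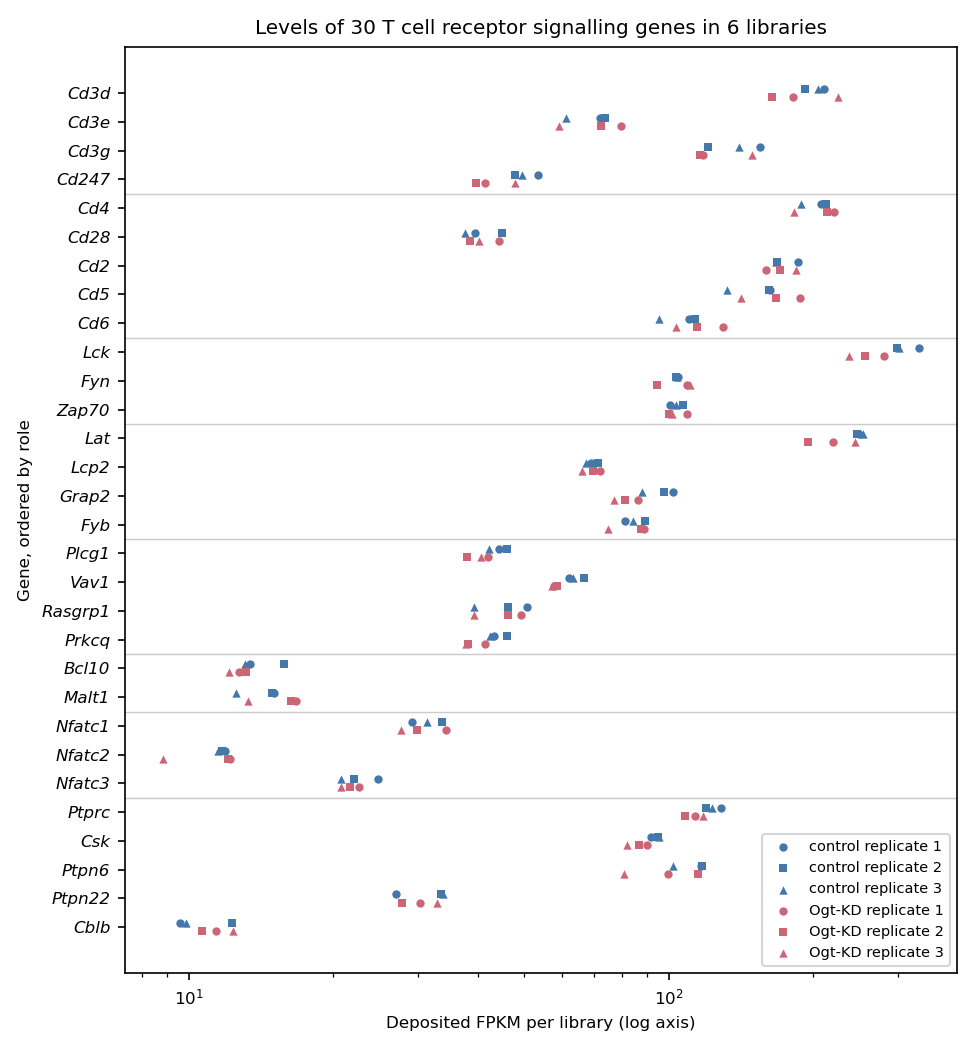
Deposited FPKM (x axis, log scale) of each member (y axis, grouped by role) in the 6 libraries, blue for control and red for Ogt-KD, with circle, square and triangle for replicates 1, 2 and 3. Lck and Lat lie furthest right and Nfatc2 and Cblb furthest left, and Cd3e and Cd5 show both replicate 3 triangles to the left of their group.

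The genes for CD3 delta, gamma and epsilon lie side by side on chromosome 9 (GRCm38): Cd3g at 44969572-44980431 on the minus strand, Cd3d at 44981786-44987339 on the plus strand and Cd3e at 44998740-45009627 on the minus strand. Cd3d and Cd3g are read away from each other from starts 1355 bases apart, while Cd3e ends 11401 bases beyond the end of Cd3d. Their start regions, 250 bases before to 50 bases after each start, are shown because Cd3d and Cd3g moved together across libraries and Cd3e did not, as given below. The sequences are from RefSeq (GRCm38.p6), at chr9:44981536-44981835 plus strand for Cd3d, chr9:44980382-44980681 minus strand for Cd3g and chr9:45009562-45009861 minus strand for Cd3e, with capitals marking matches on either strand to AGGAAG, the core bound by ETS factors, or CAGGTG, an E-box.
Cd3d: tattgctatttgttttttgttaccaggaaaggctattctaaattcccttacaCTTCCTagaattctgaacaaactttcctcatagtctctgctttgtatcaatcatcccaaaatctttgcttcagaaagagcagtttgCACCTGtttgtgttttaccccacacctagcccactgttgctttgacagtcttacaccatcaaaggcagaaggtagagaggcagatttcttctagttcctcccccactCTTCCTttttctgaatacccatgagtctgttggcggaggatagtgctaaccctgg
Cd3g: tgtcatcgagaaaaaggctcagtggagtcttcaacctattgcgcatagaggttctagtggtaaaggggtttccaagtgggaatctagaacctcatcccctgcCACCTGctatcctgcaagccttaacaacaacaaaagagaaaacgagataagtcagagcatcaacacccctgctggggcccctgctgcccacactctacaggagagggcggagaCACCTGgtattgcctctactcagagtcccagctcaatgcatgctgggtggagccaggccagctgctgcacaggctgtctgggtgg
Cd3e: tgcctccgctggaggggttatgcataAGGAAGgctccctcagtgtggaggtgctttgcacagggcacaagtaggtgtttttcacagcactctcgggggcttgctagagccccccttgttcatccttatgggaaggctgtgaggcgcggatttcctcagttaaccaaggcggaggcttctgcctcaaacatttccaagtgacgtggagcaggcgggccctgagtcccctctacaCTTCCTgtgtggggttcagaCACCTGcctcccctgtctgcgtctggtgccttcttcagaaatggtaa
The Cd3d and Cd3e windows each held 2 ETS cores and 1 E-box, and the Cd3g window held 0 ETS cores and 2 E-boxes. Of the members, 24 had a start window in the RefSeq table, 32 windows in all, and Cd4, Cd28, Cd2, Cd6, Malt1 and Nfatc1 had no entry. AGGAAG was in 75% of these 32 windows, against 35.4% of all 32851 windows of the same length, and CAGGTG in 46.9% against 20.2%. The RUNX core TGTGGT was in 12.5% against 16.8% and the TATA box TATAAA in 9.38% against 13.6%. These 4 strings do not contain one another, both strands were searched, and a match describes letters only. A gene with several windows, such as Lck, counted once for each. No share over genes expressed in these cells is given, so these shares do not single out the members among such genes.

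No gene of the receptor complex passed the test. Cd3d was at 388, 348 and 373 CPM across control replicates 1 to 3 and at 333, 301 and 410 CPM across Ogt-KD replicates 1 to 3. Its highest library and its lowest were both Ogt-KD, and the groups overlapped (log2 fold change -0.09, SE 0.13). Cd3g was at 514, 393 and 460 CPM across the controls against 390, 383 and 489 CPM across the Ogt-KD libraries, also overlapping (log2 fold change -0.11, SE 0.15). Cd3e was at 297, 299 and 250 CPM across the controls against 329, 299 and 241 CPM across the Ogt-KD libraries, with both replicate 3 libraries lowest (log2 fold change 0.04, SE 0.14). When control replicate 3 or Ogt-KD replicate 1 was left out, the Cd3e fold change took the other sign, at -0.06 each. Cd247, whose product carries more activation motifs than any CD3 chain, was at 288, 254 and 264 CPM across the controls against 223, 213 and 255 CPM across the Ogt-KD libraries. Only Ogt-KD replicate 3 reached the control range, and the Cd247 fold change was -0.22 (SE 0.10, 95% interval -0.47 to 0.02, edgeR adjusted p = 0.684). Cd247 shares 3007 of its 5329 annotated exon bases with Pou2f1 on the opposite strand, which had reads equal to 31.1% of those of Cd247, and no source used here names the strand setting of the counting.

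Within a library, the ratio of Cd3d to Cd3g varied less than the ratio of either to Cd3e. Cd3d over Cd3g lay between 1.36 and 1.60 in FPKM over the 6 libraries. Cd3d over Cd3e was 2.94, 2.61 and 3.35 across the controls in order of replicate number, against 2.27, 2.27 and 3.82 across Ogt-KD. Cd3g over Cd3e ran 2.16, 1.64 and 2.29 in control against 1.48, 1.60 and 2.53 in Ogt-KD. Replicate 3 was the highest library of each group for both ratios, and the groups overlapped. Cd4 over Cd3e was steadier, from 2.78 to 3.10, although the 2 genes lie on different chromosomes. These ratios were chosen after the values were seen and are given with no test.

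**Figure D4:**
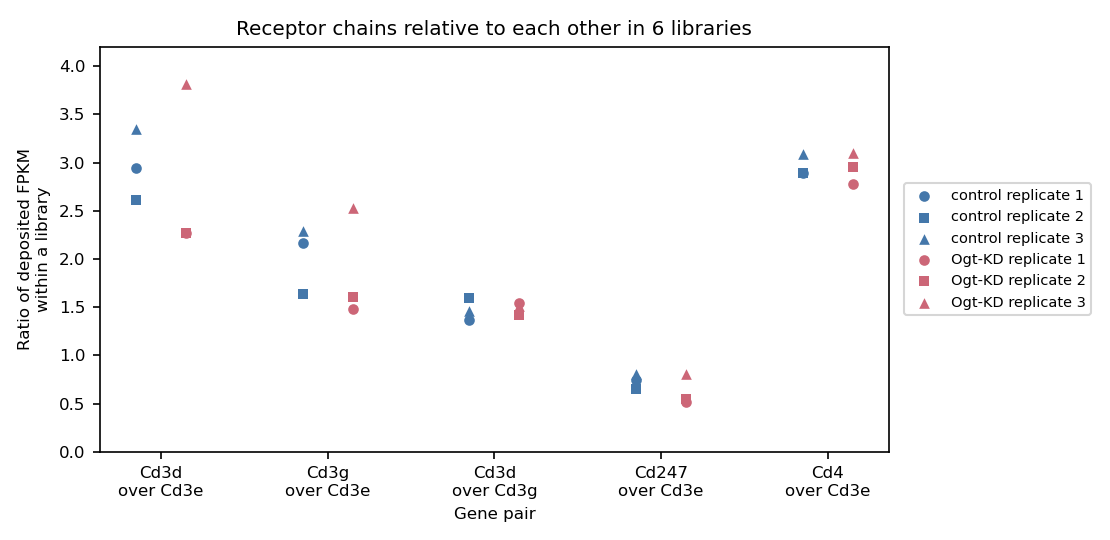
Ratios of deposited FPKM within each library (y axis) are drawn for 5 gene pairs (x axis), blue for control and red for Ogt-KD, with a triangle for replicate 3. Both triangles top their group for Cd3d over Cd3e and Cd3g over Cd3e, while Cd3d over Cd3g stays between 1.36 and 1.60.

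Among the coreceptor and surface receptors, 4 of 5 fold changes were above 0 and none passed the test. Cd4, the coreceptor that binds MHC class II and carries LCK, was at 847, 856 and 762 CPM across the controls against 903, 872 and 739 CPM across the Ogt-KD libraries, overlapping (log2 fold change 0.03, SE 0.12). The scavenger-family receptors CD5 and CD6, which are known to restrain receptor signalling, gave the highest values of the group. Cd5 was at 341, 334 and 275 CPM across the controls against 393, 349 and 293 CPM across the Ogt-KD libraries, and Cd6 at 380, 385 and 326 CPM across the controls against 446, 395 and 353 CPM across the Ogt-KD libraries. For both genes the Ogt-KD library was above the control library of the same number in 3 of 3 replicates, and the groups overlapped, with replicate 3 lowest in each. The labels do not state that same-numbered libraries are paired, and the share of all tested genes with such an order is not given. The edgeR adjusted p was 0.942 for Cd5 and 0.923 for Cd6. Their log2 fold changes were 0.12 (SE 0.14) for Cd5 and 0.13 (SE 0.12) for Cd6. Without control replicate 3 these fell to 0.0099 for Cd5 and 0.036 for Cd6, and without Ogt-KD replicate 3 they were 0.23 and 0.21. Cd28, the costimulatory receptor, and Cd2, an adhesion receptor, had log2 fold changes of 0.02 (SE 0.10) and -0.02 (SE 0.10).

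Lck had the largest fold change in size of any member and Zap70 the smallest, and neither passed the test. Lck, the kinase that starts the chain, was at 987, 875 and 889 CPM across the controls against 835, 759 and 696 CPM across the Ogt-KD libraries. All 3 Ogt-KD libraries lay below all 3 controls, at 83.2% of the control mean, and the log2 fold change was -0.27 (SE 0.12, 95% interval -0.54 to 0.01, edgeR adjusted p = 0.669). Zap70 was at 305, 320 and 311 CPM across the controls against 331, 302 and 304 CPM across the Ogt-KD libraries, and its highest value was only 1.10 times its lowest (log2 fold change 0.003, SE 0.09). Fyn, the second SRC-family kinase of T cells, differed by a log2 fold change of 0.01 (SE 0.10). Zap70, Lck and Lat are also transcribed in natural killer (NK) cells, and in bulk RNA fewer cells of a type and less RNA per cell cannot be told apart. The 6 NK cell markers, led by Gzma, summed to 28.0 to 30.9 CPM in control and 41.8 to 50.4 CPM in Ogt-KD. Of the markers tested, 4 of 4 were above 0 and none was called. Gzma was at 6.99, 10.5 and 6.93 CPM across the controls against 27.1, 18.8 and 14.0 CPM across the Ogt-KD libraries. The groups overlapped for Klrb1c, Eomes and Klrk1. Ncr1 and Klra8 had only 30 and 12 reads summed over all libraries and were not tested, so the difference in the sums comes mainly from Gzma. The part of NK cells in the member values was not tested.

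The adaptors divided into a pair whose Ogt-KD libraries lay below the controls without overlap and a pair with fold changes near 0, and none passed the test. Lat, the membrane scaffold phosphorylated by ZAP-70, was at 698, 681 and 704 CPM across the controls against 615, 547 and 678 CPM across the Ogt-KD libraries. Its 3 control libraries were close together and Ogt-KD replicate 3 came just below them (log2 fold change -0.18, SE 0.11, edgeR adjusted p = 0.812). Grap2 encodes GADS, which links LAT to SLP-76, and was at 645, 607 and 552 CPM across the controls against 544, 511 and 481 CPM across the Ogt-KD libraries. Here the lowest control and the highest Ogt-KD library nearly touched (log2 fold change -0.23, SE 0.11, 95% interval -0.49 to 0.02, edgeR adjusted p = 0.681). Lcp2, the gene for SLP-76, ran from 295 to 324 CPM over all 6 libraries, with a log2 fold change of 0.008 (SE 0.09). Fyb, the gene for the adhesion adaptor ADAP, differed by a log2 fold change of -0.01 (SE 0.11).

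The enzymes and exchange factors that turn the adaptor complex into second messengers all had fold changes below 0, and none passed. Vav1, a guanine nucleotide exchange factor, was at 232, 245 and 233 CPM across the controls against 215, 218 and 211 CPM across the Ogt-KD libraries. The 2 groups did not overlap and each was tight, at 90.7% of the control mean (log2 fold change -0.14, SE 0.08, 95% interval -0.33 to 0.04). Prkcq, the gene for protein kinase C theta, was at 311, 325 and 302 CPM across the controls against 296, 273 and 269 CPM across the Ogt-KD libraries, again without overlap (log2 fold change -0.16, SE 0.09). Plcg1, the phospholipase that releases the calcium signal, differed by a log2 fold change of -0.13 (SE 0.09), and it shares 379 exon bases with Zhx3 on the opposite strand. Rasgrp1, the diacylglycerol-driven Ras activator, had -0.0092 (SE 0.14), with replicate 3 the lowest library in both groups.

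Downstream of protein kinase C theta, Malt1 and Bcl10, which act on the way to NF-kB, had opposite signs and neither passed the test. Malt1, the paracaspase, was at 179, 174 and 148 CPM across the controls against 199, 193 and 156 CPM across the Ogt-KD libraries, overlapping through the replicate 3 libraries (log2 fold change 0.13, SE 0.13). Leaving out control replicate 3 gave Malt1 0.03, and leaving out Ogt-KD replicate 3 gave 0.23. Bcl10, its adaptor, lay between 55.5 and 71.8 CPM, with a log2 fold change of -0.15 (SE 0.10). Of the calcium-driven NFAT factors, Nfatc2 showed the pull of a single library: it was at 127, 123 and 122 CPM across the controls against 130, 129 and 93.5 CPM across the Ogt-KD libraries. Its log2 fold change was -0.08 (SE 0.14) over all libraries and 0.06 without Ogt-KD replicate 3. Nfatc1 and Nfatc3 had log2 fold changes of -0.03 (SE 0.11) and -0.05 (SE 0.10).

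Of the 5 genes that set or limit the signal, 4 had fold changes below 0. Ptprc encodes CD45, the phosphatase that keeps LCK ready for activation and is carried by all leukocytes, and was at 2385, 2180 and 2258 CPM across the controls against 2103, 2004 and 2160 CPM across the Ogt-KD libraries. The groups did not overlap, but control replicate 2 and Ogt-KD replicate 3 nearly met (log2 fold change -0.12, SE 0.12). Csk, the kinase that places the inhibitory phosphate on LCK, was at 347, 355 and 357 CPM across the controls against 341, 327 and 307 CPM across the Ogt-KD libraries (log2 fold change -0.12, SE 0.09). Neither Ptprc nor Csk passed the test. Ptpn6, the gene for the phosphatase SHP-1, was at 332, 328 and 287 CPM across the controls against 283, 326 and 226 CPM across the Ogt-KD libraries, the widest range of any member at 1.47 times from lowest to highest (log2 fold change -0.18, SE 0.15). Leaving out Ogt-KD replicate 3 gave Ptpn6 -0.05, and leaving out Ogt-KD replicate 2 gave -0.31. Ptpn22, a phosphatase that acts on LCK and ZAP-70, differed by a log2 fold change of -0.05 (SE 0.12), and Cblb, a ubiquitin ligase that raises the threshold for activation, had 0.12 (SE 0.12). Ptprc, Ptpn6, Csk, Vav1 and Lcp2 are also transcribed in other leukocytes, so the macrophage, dendritic and B cell RNA in these libraries can add to their counts. The 9 B cell markers, led by Cd79a, summed to 86.1 to 123 CPM in control and 107 to 141 CPM in Ogt-KD, and the 8 neutrophil markers, led by S100a9, to 110 to 219 and 127 to 300 CPM. Erythroid markers, led by Hba-a1, summed to 21.7 to 55.5 CPM in control and 43.8 to 196 CPM in Ogt-KD, and platelet markers, led by Itga2b and with Gp1bb at 0 in every library, to 3.84 to 5.35 and 4.80 to 5.43 CPM. No marker of any of these lists was called by edgeR, and their part in the member values was not tested.

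For most members, the replicate 3 libraries differed from the other 4 by more than the genotypes differed. Replicate 3 was singled out after the data were seen, and replicates 1 and 2 were not compared in this way. A gap between 2 and 4 libraries also varies more by sampling than a gap between 3 and 3. The gap between the replicate 3 libraries and the other 4 was larger than the gap between the groups for 19 of 30 members (63.3%), close to the 64.5% of all tested genes. Cd5 was lower in the replicate 3 libraries by 0.32 on the log2 scale, and Cd3e by 0.32, Ptpn6 by 0.31, Rasgrp1 by 0.30 and Malt1 by 0.29. Cd3d and Cd3g were higher there, by 0.20 and 0.19, as were Ptpn22 by 0.16 and Lat by 0.13. Members therefore moved in both directions in libraries that also had the highest macrophage and monocyte marker sums and the lowest dendritic cell marker sums. The part of those cells in this pattern was not tested. By single library, Ogt-KD replicate 3 held the lowest value of 15 members, Ogt-KD replicate 2 of 8, and Ogt-KD replicate 1 the highest of 10. The same counts over all tested genes are not given. Between libraries of the same number, members were higher in Ogt-KD for 14 and lower for 16 at number 1, for 7 and 23 at number 2, and for 9 and 21 at number 3. The members' median of these log2 differences was -0.034, -0.116 and -0.048 at numbers 1 to 3. Over all tested genes it was -0.013, 0.0039 and 0.0041.

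**Figure D5:**
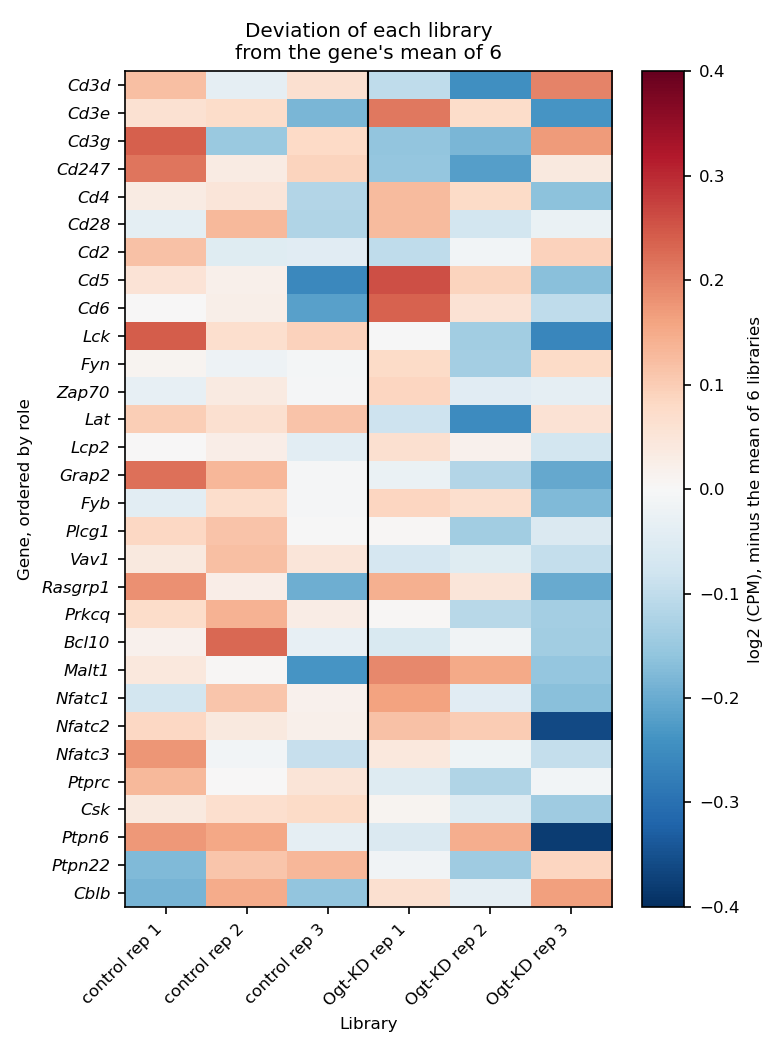
Colour gives each library's log2 CPM minus the gene's mean over 6 libraries, with members as rows grouped by role and libraries as columns, control left of the line and Ogt-KD right of it. Ogt-KD replicate 3 is mostly blue, the lowest library of 15 members, and Cd3e, Cd5 and Malt1 are blue in replicate 3 of both groups while Cd3d and Cd3g are red there.

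No gene of the wider pathway passed the test either. A list of 82 other genes of the chain, from kinase regulators and calcium channels to Ras and PI3 kinases and negative regulators, had 81 tested, all but Spry2. Of these, 30 had fold changes above 0 and 51 below, with a median of -0.03, 5 had an unadjusted p under 0.05 and 0 passed in edgeR. All tested genes had an unadjusted p under 0.05 in 7.52% of cases, so 5 of 81 is no more than the background. The smallest p among those above 0 belonged to Unc119, an activator of SRC-family kinases, and the negative regulators Ubash3b and Dok1. Unc119 was at 24.5, 25.7 and 27.8 CPM across the controls against 32.0, 34.3 and 38.8 CPM across the Ogt-KD libraries, without overlap (log2 fold change 0.43, SE 0.11, edgeR adjusted p = 0.526). Ubash3b, a phosphatase that acts on ZAP-70, was at 33.6 ± 0.69 CPM in the controls against 41.4 ± 2.59 CPM in Ogt-KD (SD, n = 3 each, log2 fold change 0.30), and Dok1, an adaptor that recruits Ras inhibitors, at 34.6 ± 1.98 and 41.5 ± 2.70 CPM (log2 fold change 0.26). Below 0 came Pik3r1, the regulatory subunit of PI3 kinase, at 234 ± 12.6 and 192 ± 21.6 CPM (log2 fold change -0.28). With it came the calcium genes Stim1, the sensor of the calcium store, at 145 ± 7.91 and 125 ± 8.09 CPM (log2 fold change -0.22) and Itpr2, a release channel, at 243, 255 and 228 CPM against 216, 214 and 170 CPM (log2 fold change -0.27). The edgeR adjusted p of these 6 genes lay between 0.526 and 0.667.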

How the data were processed

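RNA-seq libraries were made with a TruSeq kit from Trizol RNA, per the labels' protocols. Bowtie2 2.0.6, TopHat2 2.0.9 and mm9 are named per the submitters' processing notes. The sources used here name neither the counting tool nor its strand setting. The authors deposited integer read counts per gene, FPKM, a log2 fold change with p-value and adjusted p-value per gene, and a gene length in bases. The deposited positions of 28 of the 30 members are identical to those of GENCODE M21 on GRCm38, and positions are given on that build. For genes with at least 100 reads, the deposited FPKM equals the count divided by the deposited gene length and a constant per library.

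Counts were tested with edgeR 4.0.16 (quasi-likelihood, robust, TMM, filterByExpr, all 6 libraries) in R 4.3.3, with Benjamini-Hochberg adjustment over 16075 genes and a threshold of 0.05. Alternatives were RLE factors, scaling to the CD3 genes, no filter, DESeq2 1.42.0, limma-voom 3.58.1, a replicate block and libraries left out. The scripts were tested on simulated data, where the share of false calls was above the threshold in each tool and highest in DESeq2. The members and lists were chosen with earlier results of these data known. Named genes were all members, the 3 other pathway genes with the smallest p in each direction, Ogt, and the highest marker of each list with any marker at 0. Trac, Trbc1, Trbc2, Cd8a, Cd8b1, Pou2f1 and Zhx3 are named beside the values they touch. So are the other NK cell markers Klrb1c, Eomes, Klrk1, Ncr1 and Klra8. The same holds for the other dendritic cell markers H2-Ab1, Itgax, Zbtb46, Cd209a, Flt3, Xcr1, Clec9a and Siglech. Protein sequences were not used here. The labels name separate samples but not whether each is 1 mouse, so p-values measure the spread between these samples, which may be technical. Deviations of same-numbered libraries from their group means correlated across genes at 0.109, 0.346 and 0.523, and control replicate 2 with Ogt-KD replicate 1 at 0.267. The block used the replicate numbers of the labels, which do not state that same-numbered libraries are paired. The p-values of the blocked fit rest on that unstated pairing and can be too small.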

Additional observations from a re-analysis of the deposited data

How the results depend on the processing

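No member passed an adjusted p of 0.05 in any of the 13 alternatives, and the smallest adjusted p was 0.171, for Cd247 without Ogt-KD replicate 3 in edgeR. Of 390 member fold changes under the alternatives, 347 kept the sign of the reported value. The 16 members that kept it throughout were those with reported sizes of at least 0.11, and the 14 others had at most 0.09. Genes called over the whole table were 4 without a filter, 126 in DESeq2, 47 with the replicate block, 35 without both replicate 3 libraries and 1 to 2 with 1 library left out. The replicate block changed no call among the members or pathway genes. Members above 0 were 16 with scaling to the CD3 counts and 4 to 13 with 1 library left out. The members' median was 0.012 with scaling to the CD3 counts and -0.108 to -0.039 with 1 library left out, and the pathway median 0.032 and -0.083 to -0.018. The CD3 scaling raised the median of all tested genes from -0.0048 to 0.060, above both lists' medians. Members with an interval within 1.5-fold were 27 to 30 with 1 library left out and 29 with scaling to the CD3 counts, a count added after the data were seen. With scaling to the CD3 counts, which raised all genes together, the sign changed for Cd2 at 0.051, Fyb at 0.057, Rasgrp1 at 0.067, Nfatc1 at 0.031, Nfatc3 at 0.021 and Ptpn22 at 0.0027, and of these only Rasgrp1 lay above the all-gene median. Without a filter, the sign changed for Fyn at -0.00028, Zap70 at -0.013 and Lcp2 at -0.0082. Without both replicate 3 libraries, the sign changed for Cd28 at -0.021, Fyn at -0.024, Fyb at 0.059, Nfatc1 at 0.036 and Nfatc2 at 0.047. With 1 library left out, the log2 fold changes that crossed 0 ranged, Cd3d -0.22 to 0.0064, Cd3e -0.063 to 0.15, Cd4 -0.046 to 0.11, Cd28 -0.058 to 0.091, Cd2 -0.069 to 0.041, Fyn -0.023 to 0.081, Zap70 -0.038 to 0.025, Lcp2 -0.032 to 0.043, Fyb -0.056 to 0.066, Rasgrp1 -0.13 to 0.083, Nfatc1 -0.12 to 0.038, Nfatc2 -0.16 to 0.060, Nfatc3 -0.13 to 0.027 and Ptpn22 -0.14 to 0.0064. Among members that kept their sign with 1 library left out, those moved by over 1.5 times were Cd3g -0.24 to -0.019, Cd5 0.0099 to 0.23, Cd6 0.036 to 0.21, Lat -0.26 to -0.10, Bcl10 -0.22 to -0.062, Malt1 0.026 to 0.23, Ptpn6 -0.31 to -0.054 and Cblb 0.056 to 0.24. Beyond the CD3 scaling, the cause of these changes was not tested.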
